A study of Mus musculus with 35 samples.

Results

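Germline genes are transcribed in developing germ cells and kept off in most somatic tissues, and 10 of them (Dazl, Ddx4, Mael, Tdrd1, Rnf17, Stk31, Sycp1, Sycp3, Taf7l and Slc25a31) were followed here in induced pluripotent stem (iPS) clones. Every probe that the array design names after one of these genes was taken, which gave 14 of 41174 gene probes: 2 each for Dazl, Tdrd1, Rnf17 and Taf7l, and 1 for each of the others. The arrays, 1-colour Agilent mouse arrays, covered 30 clones, 2 embryonic stem (ES) cell lines and the 3 kinds of cells from which the clones were made, 35 samples in all. The clones formed 6 groups of 5, induced with Oct3/4, Sox2, Klf4 and c-Myc (4F) or with the same factors except c-Myc (3F) from bone marrow PαS cells, bone marrow OP cells or tail tip fibroblasts (TTF). PαS cells are PDGFRα+ Sca-1+ mesenchymal stem cells and OP cells are PDGFRα- Sca-1- osteo-progenitors, both sorted as CD45- Ter119- cells. These cells and the TTF came from 6-week-old mice that carry a Nanog promoter-driven GFP and puromycin-resistance reporter. The factors were delivered by retrovirus together with DsRed, and clones were picked as GFP+ DsRed- and puromycin-resistant. All clones had therefore been selected for Nanog reporter activity and for a silenced DsRed vector, and were grown on SNL feeder cells. The ES arrays were of the lines EB-3 (ES #1) and RF8 (ES #2), 1 array each, and each kind of source cell had 1 array.

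In the mouse, the promoters of many germline genes are rich in CpG dinucleotides, gain DNA methylation around implantation, and stay methylated and silent in somatic cells until primordial germ cells erase the mark. In pluripotent cells several of them are transcribed at low levels, and a second layer of control acts through a Polycomb complex (PRC1.6) that contains Mga, which binds the E-box hexamer CACGTG, and E2f6, which binds GCGGGAA. These genes are therefore often read as a sign of how far the somatic chromatin state has been reset. Only RNA was measured on these arrays. Methylation of these genes was not analysed here, so the silencing by methylation that their grouping refers to is background.

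The promoter windows show what these genes share in sequence. RefSeq windows of 300 bases (250 before to 50 after the start site, GRCm38.p6) were at hand for 9 of the 10 genes, all but Rnf17. In the first window of each gene CpG dinucleotides numbered from 15 (Sycp3) to 38 (Ddx4), against a median of 7 over the first windows of 27025 genes, of which 66.5% held 15 or fewer. The hexamer CACGTG, which reads the same on both strands, was present in 8 of the 9 windows (88.9%), against 7.24% of all first windows and 11.5% of those with at least 15 CpG. It began 11 bases before the start site in Tdrd1, 29 in Ddx4, 43 and 64 in Sycp3, 49 in Taf7l, 55 in Stk31, 93 in Slc25a31, 94 in Sycp1 and 223 in Mael. The letters GCGGGAA, on either strand, were in 3 windows (Ddx4, Sycp3 and Slc25a31), against 4.66% of all first windows and 10.4% of those with at least 15 CpG. Neither motif overlapped the other, and the Dazl window held neither. A match describes the letters only and is no measure of binding.

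The windows of 5 genes are printed because the results below turn on these genes: Dazl and Ddx4, both at background in 4F-OP-iPS #1 to #3 and 4F-TTF-iPS #1, Sycp3, which was called between 3F- and 4F-clones from both OP cells and TTF, and Tdrd1 and Taf7l, which stayed measurable where the others did not. They lie at chr17:50293571-50293870 (Dazl, minus strand), chr13:112652261-112652560 (Ddx4, minus strand), chr10:88459337-88459636 (Sycp3, plus strand), chr19:56825959-56826258 (Tdrd1, plus strand) and chrX:134476441-134476740 (Taf7l, minus strand) of GRCm38.p6. Capitals mark CACGTG and GCGGGAA, and each window runs 5′ to 3′ on the strand of its gene.
Dazl: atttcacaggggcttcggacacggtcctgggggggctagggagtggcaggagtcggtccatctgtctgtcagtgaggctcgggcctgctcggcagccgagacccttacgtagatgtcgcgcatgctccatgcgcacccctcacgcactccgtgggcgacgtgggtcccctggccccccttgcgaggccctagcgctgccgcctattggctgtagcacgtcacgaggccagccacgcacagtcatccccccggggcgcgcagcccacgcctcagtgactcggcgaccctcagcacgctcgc
Ddx4: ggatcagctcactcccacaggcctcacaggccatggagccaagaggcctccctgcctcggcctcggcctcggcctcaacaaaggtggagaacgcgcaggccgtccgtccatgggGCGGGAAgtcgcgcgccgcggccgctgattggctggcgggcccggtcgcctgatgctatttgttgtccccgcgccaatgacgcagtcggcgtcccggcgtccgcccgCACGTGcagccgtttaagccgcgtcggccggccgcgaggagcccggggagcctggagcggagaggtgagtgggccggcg
Sycp3: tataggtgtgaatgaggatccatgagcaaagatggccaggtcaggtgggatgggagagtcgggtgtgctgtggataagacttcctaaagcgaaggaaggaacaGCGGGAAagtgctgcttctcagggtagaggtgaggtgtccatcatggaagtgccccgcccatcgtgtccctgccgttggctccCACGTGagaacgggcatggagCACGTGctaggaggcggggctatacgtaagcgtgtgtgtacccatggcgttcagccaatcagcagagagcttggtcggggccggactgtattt
Tdrd1: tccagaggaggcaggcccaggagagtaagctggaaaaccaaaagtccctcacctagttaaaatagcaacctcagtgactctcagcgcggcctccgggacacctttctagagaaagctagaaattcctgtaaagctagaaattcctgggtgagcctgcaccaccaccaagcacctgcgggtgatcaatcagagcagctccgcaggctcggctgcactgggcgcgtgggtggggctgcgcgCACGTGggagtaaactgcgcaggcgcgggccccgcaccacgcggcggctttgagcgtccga
Taf7l: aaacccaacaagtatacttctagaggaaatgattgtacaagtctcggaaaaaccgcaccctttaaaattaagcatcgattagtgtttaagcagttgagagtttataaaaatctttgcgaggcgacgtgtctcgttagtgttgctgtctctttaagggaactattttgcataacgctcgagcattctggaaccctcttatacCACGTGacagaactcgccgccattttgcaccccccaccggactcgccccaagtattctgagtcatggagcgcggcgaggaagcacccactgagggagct

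**Figure D1:**
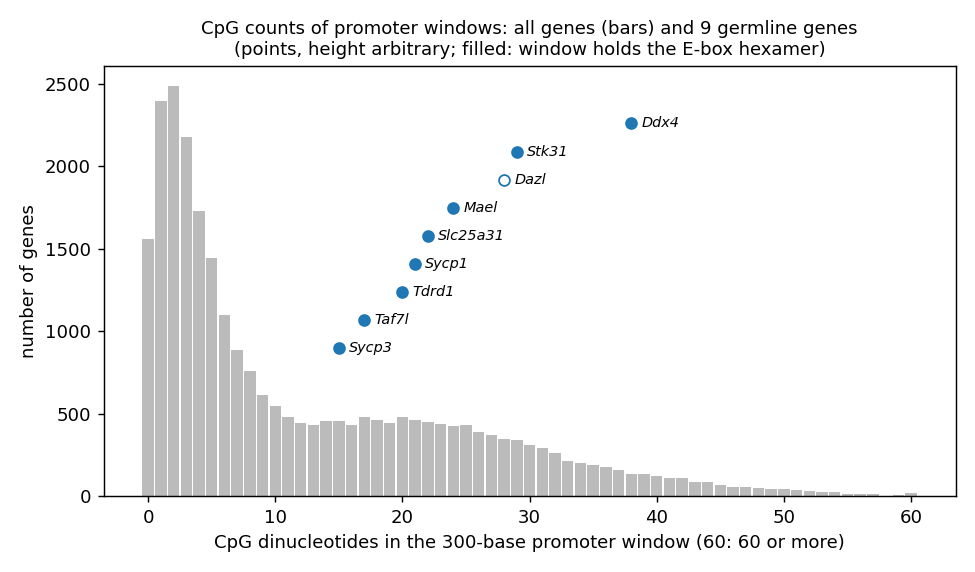
Bars give the number of genes (y axis) by CpG dinucleotides in the first 300-base promoter window (x axis), and points place the 9 germline genes on the x axis only, filled where the window holds CACGTG. All 9 lie at 15 CpG or more, to the right of the median of 7, and Dazl is the gene without the hexamer.

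Levels are log2 intensities relative to the 75th percentile of the array, so 0 is the signal of that percentile and each unit is a factor of 2. The scanner software marks a probe as well above background or not, and a signal that is not above background has no order below it. Probes above background made up 56.6% to 65.7% of gene probes on the clone arrays, 63.0% to 64.3% on those of source cells and 64.3% and 71.3% on those of ES cells. All clones were scanned in 1 session on 8 slides, EB-3 and the source cells in another session, and RF8 in one of its own. Clones made with 3F and with 4F from the same source never lay on the same slide, and for PαS and OP cells no other group links the slides of the 3F-clones to those of the 4F-clones. Within these sources factors and slide cannot be told apart, and for TTF they are linked only through 3F-PαS-iPS and 3F-OP-iPS clones. For genes with 2 probes the level is that of the brighter one, judged by its mean over the clone and ES arrays. Precision is limited by how many arrays there are. Whether clones of 1 group came from separate animals is not given in the sources used here. The p values therefore rest on the spread between clones, as 1 estimate per probe pooled over the 7 groups. The groups differ in it: for Ddx4 the SD was 3.81 in 4F-OP-iPS, 1.29 in 3F-OP-iPS and 0.42 in 3F-PαS-iPS clones. SEs and p values can thus be too small where the compared clones vary most, and too large where they vary least.

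The ES cells carried all 10 genes, and most clones did too. Each gene was above background on both ES arrays. In 25 of the 30 clones 9 or 10 of the genes were above background, and where 1 was missing (4F-PαS-iPS #1 and #4, 3F-OP-iPS #1 and 4F-TTF-iPS #4) it was Sycp1, which encodes the transverse filament of the synaptonemal complex. The other 5 clones carried fewer: 2 genes in 4F-OP-iPS #1, 3 in 4F-OP-iPS #2, 3 in 4F-OP-iPS #3, 2 in 4F-TTF-iPS #1 and 6 in 4F-TTF-iPS #2. Dazl, Sycp1, Stk31 and Rnf17 were not above background in any of these 5 clones, and Ddx4 in 4 of them. In the array of PαS source cells 3 genes were above background (Tdrd1, Taf7l and Slc25a31), in that of TTF 1 (Ddx4), and in that of OP cells none.

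**Figure D2:**
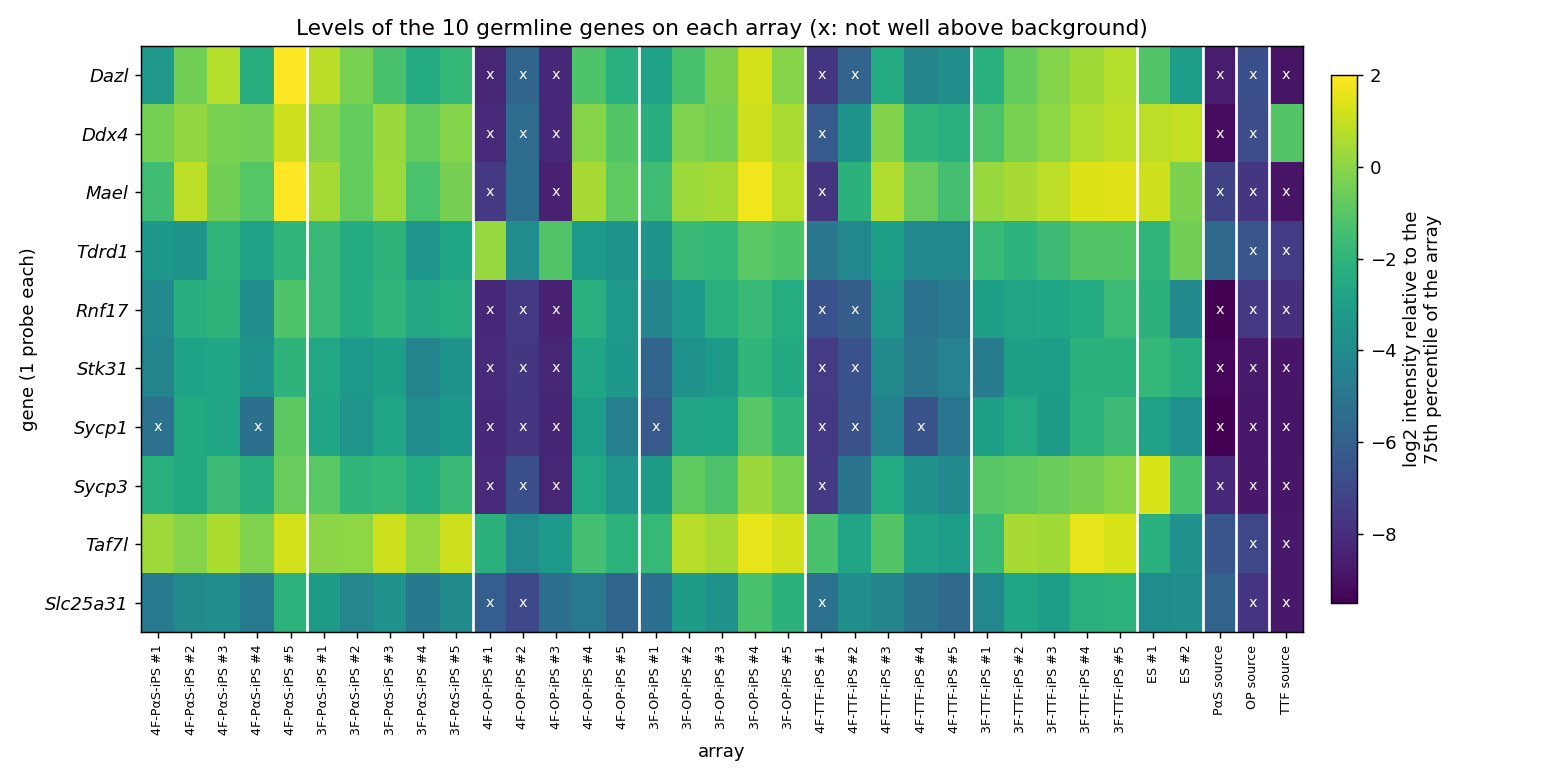
Colour gives the level of each gene (rows, 1 probe each) on each of the 35 arrays (columns), as log2 intensity relative to the 75th percentile of the array, and an x marks a signal not well above background. Columns 4F-OP-iPS #1 to #3 and 4F-TTF-iPS #1 are dark for most genes, as are the source cells, whereas Tdrd1 and Taf7l are measurable in every clone.

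The same 5 clones were low in pluripotency genes. Sox2, Nanog and Gm397 (Zscan4) all lay 8-fold or more under the ES mean in these 5 clones and in no other. Sox2 was not above background in 4F-OP-iPS #1 and #3 and 4F-TTF-iPS #1. Its log2 difference from ES cells was -5.81 in 4F-OP-iPS #2 and -3.57 in 4F-TTF-iPS #2, while in the other 25 clones it lay between -3.37 and -0.55. Of 7 pluripotency markers (Pou5f1, Sox2, Nanog, Zfp42, Esrrb, Sall4 and Dppa4) 3 to 7 were above background in the 5 clones and all 7 in the others. The summed linear level of these markers was 5.53 to 12.7 in the 5 clones and 14.4 to 88.3 in the others. Of 10 fibroblast and feeder markers 9 or 10 were above background in both sets, with summed levels of 70.7 to 220.0 in the 5 clones and 95.4 to 400.1 in the others. Of the PαS sorting markers Pdgfra and Ly6a both were above background in every clone, with summed levels of 11.5 to 24.3 in the 5 clones and 1.16 to 27.6 in the others. Of 4 haematopoietic markers 0 to 2 were above background in any clone. The part of these markers in the germline values was not tested, and in bulk samples fewer cells of a type and less RNA per cell cannot be told apart.

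The dark clones shared slides with clones that carried the genes. One slide held 4F-OP-iPS #3, with 3 genes above background, beside 4F-OP-iPS #4 and #5 and 4F-PαS-iPS #2, each with all 10. A second slide held 4F-OP-iPS #1 and #2, with 2 and 3 genes, beside 4F-PαS-iPS #3 and #5 with all 10. The third such slide held 4F-TTF-iPS #1 and #2 beside #3 and #4, with 10 and 9.

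**Figure D3:**
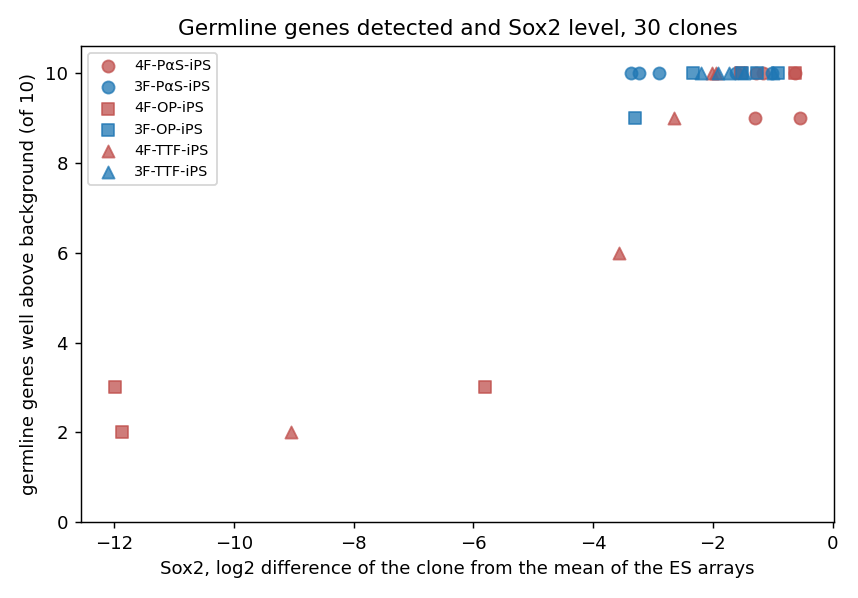
Each point is 1 of the 30 clones, with the log2 difference of Sox2 from the mean of the ES arrays on the x axis and the number of the 10 germline genes well above background on the y axis. The 5 clones with 2 to 6 genes were all induced with 4F, from OP cells or TTF, and lie at the left, the 3 farthest left with Sox2 not above background and so in no order on the x axis, and all others carry 9 or 10.

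Across the PαS-iPS clones the number of factors made no detectable difference to these genes. Of the 13 probes that could be tested (the dim Tdrd1 probe at chr19:56781966-56782447, mm7, above background on the RF8 array only, was not), 0 were called between 3F- and 4F-PαS-iPS clones with limma, where a call needs an adjusted p under 0.05 and at least 2-fold, against 0.0181% of all 27634 tested probes. None of the 13 reached an unadjusted p under 0.05 either. The log2 differences, 3F minus 4F, ran from -0.35 ± 1.22 (SE) for Dazl to 0.46 ± 0.90 for Rnf17, with a median of 0.04. With 5 clones in each group, the SE, pooled over all groups, sets the limit: for Dazl it leaves room for differences of several-fold. The SD of Dazl was 2.15 in 4F- and 1.28 in 3F-PαS-iPS clones. That of Ddx4 was 0.65 and 0.42, while its SE in the fit was 1.15.

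In OP-iPS clones 8 of the 10 genes were higher with 3 factors in the fit without the slide. The slide as a fixed block could not be fitted here, since factors and slide coincide, and with the slide as a random block 4 probes were called, with Sycp3, Taf7l and Slc25a31 among them. Without the slide 11 of the 13 probes were called, all higher in 3F-OP-iPS, against 3.93% of all tested probes called higher, and the median difference was 3.17 against 0.02 over all tested probes. The call covers 8 genes, and Stk31 and Tdrd1 did not pass. Since signals not above background enter as measured, the differences below depend on values that have no order, and each is also given with such signals raised to the lowest level its array could tell from background (the floor). With the floor 8 probes were called, from Dazl, Ddx4, Mael, Sycp3, Taf7l and Slc25a31. Every gene overlapped between the groups, while of 27607 tested probes 637 were higher and 743 lower without overlap. For genes other than Tdrd1 this was because 4F-OP-iPS #4 and #5 carried them and 3F-OP-iPS #1 was the lowest of its group. For Tdrd1 4F-OP-iPS #1 lay above every 3F-OP-iPS clone.

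Dazl, Ddx4 and Mael act on RNA in germ cells. Dazl (probe at chr17:48427556-48427615, mm7), an RNA-binding protein needed for germ cell development, stood at -2.92, -1.29, -0.27, 1.27 and -0.11 in 3F-OP-iPS #1 to #5, at -1.16 and -2.21 in 4F-OP-iPS #4 and #5, and not above background in 4F-OP-iPS #1 to #3 (-8.26, -5.81 and -8.18). Its group means differed by 4.46 ± 1.22 (SE, n = 5 and 5, limma adjusted p = 0.0248), or by 3.54 ± 1.01 with the floor, and its second probe gave 3.99 ± 1.11 (adjusted p = 0.0271). Ddx4 (chr13:109754306-109754365), the Vasa RNA helicase of germ granules, stood at -2.30, -0.24, -0.40, 1.12 and 0.53 in 3F-OP-iPS #1 to #5. In 4F-OP-iPS #4 and #5 it reached -0.10 and -1.09, and in #1 to #3 it was not above background (-8.07, -5.50 and -8.18). The difference was 4.33 ± 1.15 (adjusted p = 0.0215), or 3.51 ± 0.94 with the floor. For Ddx4 the 3 dark clones lay at least 117.0-, 84.6- and 136.6-fold under the ES mean, from the lowest signal that the array could still tell from background. Mael (chr1:166172164-166172223), which works in the nuage to defend against transposons, differed by 4.70 ± 1.34 (adjusted p = 0.0303), or by 3.93 ± 1.06 with the floor. It was -1.55 to 1.75 in 3F-OP-iPS, and in 4F-OP-iPS it was 0.50 and -0.84 in #4 and #5, -5.33 in #2 and not above background in #1 and #3.

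Tdrd1, Rnf17 and Stk31 carry tudor domains, and of these Rnf17 passed the test. Tdrd1, which binds Piwi proteins in the nuage, was measured by its probe at chr19:56785896-56785955. It stood at -3.56, -1.69, -1.90, -0.94 and -1.16 in 3F-OP-iPS #1 to #5 and at 0.22, -3.97, -1.12, -3.29 and -3.55 in 4F-OP-iPS #1 to #5. Its highest level among all 30 clones was thus in 4F-OP-iPS #1, in which 8 of the 10 genes were not above background, and 4F-OP-iPS #3 was above the mean of its group. The difference of 0.49 ± 0.61 (adjusted p = 0.67) did not pass. Rnf17 (chr14:51302345-51302404), a component of granules in male germ cells, was -4.28 to -1.70 in 3F-OP-iPS and -2.21 and -3.31 in 4F-OP-iPS #4 and #5, with the other 3 clones not above background. The difference was 3.17 ± 0.90 (adjusted p = 0.0292), and 2.25 ± 0.64 at its second probe (adjusted p = 0.0291). With the floor neither passed, at 1.86 ± 0.65 (adjusted p = 0.0762) and 0.98 ± 0.44 (adjusted p = 0.167). Stk31 (chr6:49407352-49407411) had 2.60 ± 0.91 (adjusted p = 0.073), or 1.33 ± 0.66 with the floor, and was dark in the same 3 clones.

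The meiotic genes Sycp1 and Sycp3 followed. Sycp3 (chr10:88027463-88030553, plus strand), which builds the lateral element of the synaptonemal complex, was -3.16, -0.79, -1.22, 0.27 and -0.30 in 3F-OP-iPS #1 to #5. In 4F-OP-iPS it was -2.63 and -3.51 in #4 and #5 and not above background in #1 to #3 (-8.14, -6.71 and -8.28). The difference was 4.82 ± 0.91 (adjusted p = 0.00292), or 3.72 ± 0.66 with the floor. Sycp1 (chr3:102647366-102648037) differed by 3.42 ± 0.97 (adjusted p = 0.0288), with 4 of 5 3F-OP-iPS clones and 2 of 5 4F-OP-iPS clones above background. With the floor it was 2.12 ± 0.77 (adjusted p = 0.0859) and did not pass.

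Taf7l and Slc25a31 are germ cell forms of proteins that other cells also have. Taf7l (chrX:129179546-129179605), an X-linked relative of the TFIID subunit Taf7, was above background in all 30 clones. It was -1.79, 0.78, 0.45, 1.55 and 1.21 in 3F-OP-iPS #1 to #5 and -2.11, -3.95, -3.27, -1.43 and -2.08 in 4F-OP-iPS #1 to #5. Only 3F-OP-iPS #1 reached into the range of the 4F-clones, and the difference was 3.01 ± 0.61 (adjusted p = 0.00435), with 3.02 ± 0.58 at the second probe (adjusted p = 0.00315). Slc25a31 (chr3:40491533-40491592), the ADP/ATP carrier of testis, was -5.32, -3.13, -3.60, -1.31 and -2.11 in 3F-OP-iPS #1 to #5. In 4F-OP-iPS it was -5.28, -4.76 and -5.77 in #3, #4 and #5 and not above background in #1 and #2, and the difference was 2.67 ± 0.59 (adjusted p = 0.00807), or 2.36 ± 0.56 with the floor. Their broadly expressed relatives Taf7, Slc25a4 and Slc25a5 differed by 1.26 ± 0.42 (adjusted p = 0.0618), -0.42 ± 0.18 (0.147) and -0.47 ± 0.25 (0.242), and of 5 such relatives 0 were called.

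The number of OP calls depended on single clones of both groups. Without the 5 clones low in Sox2, Nanog and Gm397, which leaves 2 clones in the 4F-OP-iPS group, 0 of 13 probes were called. The differences were then 2.20 for Taf7l, 2.17 for Slc25a31, 2.03 for Sycp3 and 1.57 for Tdrd1, while those of Ddx4 (0.34), Mael (0.54), Rnf17 (-0.02) and Stk31 (-0.39) were small or turned. Without 4F-OP-iPS #1 or #3 alone 4 probes were called, without #2 6, and without 3F-OP-iPS #3, #4 or #5 6, 4 and 4. By gene, the call was lost in 7 of the 32 fits with 1 array left out for Mael and for Sycp1. It was lost in 6 for Rnf17, 4 each for Dazl and Ddx4, and 0 for Sycp3, Taf7l and Slc25a31. With normexp background correction 3 probes were called, Sycp3 and Taf7l among them. Of the 7 pluripotency markers 1 was called higher in 3F-OP-iPS (median difference 4.07), of the 10 fibroblast and feeder markers 0, and of the 3 tested Sertoli and Leydig cell markers 0. Of 4 tested osteo-lineage markers 1 was higher, the osteocalcin gene Bglap1 at 1.83 ± 0.39 (adjusted p = 0.00666), and of the 2 PαS sorting markers 0 were called. The part of these markers was not tested.

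In TTF-iPS clones 7 of the 10 genes were higher with 3 factors in the fit without the slide, and none with the slide as a fixed or random block. Under the fixed block the differences of Sycp1 and Taf7l were -0.06 and -0.52. That fit in effect sets 3F-TTF-iPS #1 against 4F-TTF-iPS #5 alone, since the other TTF-iPS clones lay on slides holding only their own group. It therefore cannot decide for the groups. Of the 13 probes 9 were called, all higher in 3F-TTF-iPS, against 3.97% of all tested probes called higher, with a median difference of 2.69 against 0.04 over all tested probes. The calls covered 7 genes: Dazl, Sycp1, Sycp3, Tdrd1, Rnf17 (at 1 of its 2 probes), Taf7l and Slc25a31. In this comparison 7 of the 13 probes, from 5 genes, did not overlap between the groups, against 9.57% of tested probes that were higher without overlap. These were Dazl, Sycp1, Sycp3, Tdrd1 and Rnf17.

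Sycp3 was -1.0, -0.83, -0.64, -0.34 and -0.11 in 3F-TTF-iPS #1 to #5. In 4F-TTF-iPS it was -5.06, -2.49, -3.57 and -4.07 in #2 to #5 and not above background in #1 (-7.53). All 3F-clones lay above all 4F-clones, and the difference was 3.96 ± 0.91 (adjusted p = 0.00759), or 3.54 ± 0.66 with the floor. For Dazl the range was -2.22 to 0.73 in 3F-TTF-iPS, against -2.45, -3.82 and -4.25 in the 3 4F-TTF-iPS clones above background, a difference of 4.42 ± 1.22 (adjusted p = 0.0222), or of 3.90 ± 1.01 with the floor. Tdrd1 was -1.71, -2.08, -1.63, -1.10 and -1.08 in 3F-TTF-iPS and -4.92, -4.12, -3.01, -4.11 and -4.13 in 4F-TTF-iPS #1 to #5. It was above background in all of them, and the difference of 2.54 ± 0.61 (adjusted p = 0.01) passed. The test of its factor effect in OP- against TTF-iPS clones did not (-2.05 ± 0.86, adjusted p = 1.00). Taf7l reached -1.75, 0.51, 0.37, 1.57 and 1.31 in 3F-TTF-iPS #1 to #5, against -1.32, -2.79, -1.09, -2.87 and -3.05 in 4F-TTF-iPS #1 to #5. Here 3F-TTF-iPS #1 fell within the 4F-clones, and the difference was 2.63 ± 0.61 (adjusted p = 0.00805). Sycp1, at background in 3 of the 5 4F-TTF-iPS clones, differed by 3.58 ± 0.97 (adjusted p = 0.0194), or by 2.77 ± 0.77 with the floor, and Slc25a31 by 1.92 ± 0.59 (adjusted p = 0.0373). Among the 32 fits with 1 array left out the call was lost in 7 for Slc25a31, 4 for Dazl and 3 for Sycp1, each time without a TTF-iPS clone.

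Ddx4, Mael and Stk31 had differences of 2.84 ± 1.15 (adjusted p = 0.112), 3.15 ± 1.34 (0.131) and 2.51 ± 0.91 (0.0752), and did not pass. The Rnf17 probes split, at 2.65 ± 0.64 (adjusted p = 0.0101) and 2.69 ± 0.90 (0.0531), and with the floor both passed, at 1.51 ± 0.44 and 2.34 ± 0.65. Without the 5 clones all 13 probes were still higher in 3F-TTF-iPS, by 1.39 to 3.12, with 3 clones left in the 4F-TTF-iPS group, and 4 were called, from Sycp3, Tdrd1 and Taf7l. These probes are not separate results, since the genes varied together over the 25 clones left (median Pearson correlation 0.80). With normexp 4 were called, and without 4F-TTF-iPS #1 5. Of the 7 pluripotency markers 0 were called here (median difference 1.53), and of the 10 fibroblast and feeder markers 0. Of the 2 PαS sorting markers 1 was lower in 3F-TTF-iPS, Ly6a (Sca-1) at -3.65 ± 1.07 (adjusted p = 0.0299), and of 4 tested osteo-lineage markers 1 was higher, Bglap1 at 1.71 ± 0.39 (adjusted p = 0.00723). The summed level of the sorting markers was 8.97 to 25.1 in 4F-TTF-iPS and 2.37 to 5.59 in 3F-TTF-iPS clones. The part of these markers was not tested. Of the 5 broadly expressed relatives 1 was called, Taf7 at 1.33 ± 0.42 (adjusted p = 0.0448), and this call was lost with normexp, without the filter on dim probes, with the slide as a block, and when any 1 of the 10 TTF-iPS clones, 3F-PαS-iPS #4 or 3F-PαS-iPS #5 was left out.

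**Figure D4:**
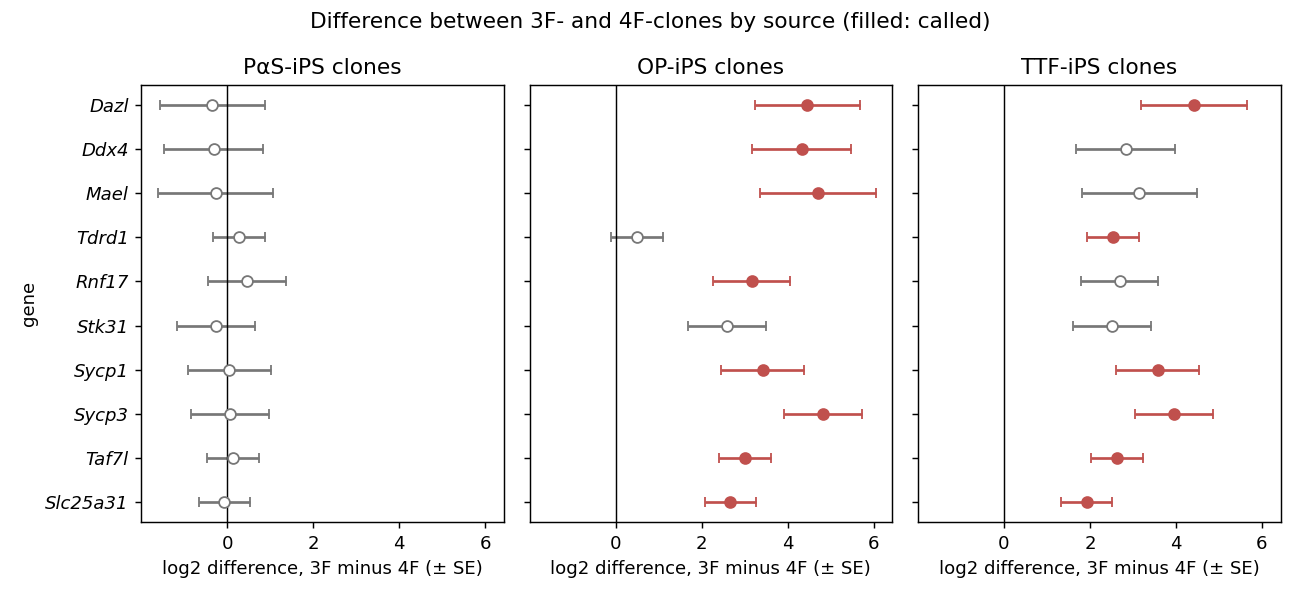
Points give the log2 difference, 3F minus 4F, of each gene (rows, chosen probe) from the limma fit, dim signals as measured, with bars of 1 SE, for PαS-, OP- and TTF-derived clones (n = 5 and 5 each), and filled points are called in this fit, which leaves the slide out. The points of PαS-iPS clones lie around 0, and those of OP- and TTF-iPS clones lie to the right of it, Tdrd1 in OP-iPS clones at 0.49.

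Whether the factors acted differently in the 3 sources was tested directly and not established. For the difference of the factor effect between PαS- and OP-iPS clones 0 of 13 probes were called, against 0.691% of all tested probes, although 12 had an unadjusted p under 0.05. Sycp3 came nearest to the threshold, at -4.75 ± 1.29 (adjusted p = 0.0648), followed by the second probe of Taf7l at -2.82 ± 0.82 (adjusted p = 0.0805). Between PαS- and TTF-iPS clones 0 were called, against 0.615% of all tested probes, with 10 at an unadjusted p under 0.05. Between OP- and TTF-iPS clones 0 of 13 and 0% of all tested probes were called, with 1 member probe at an unadjusted p under 0.05, Tdrd1 at -2.05 ± 0.86. The first of these counts depended on single clones: without 4F-OP-iPS #4 10 probes were called, without 4F-OP-iPS #5 1 and without 3F-OP-iPS #1 4.

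Between sources, with both factor sets averaged, Taf7l was the gene that passed. Both of its probes were higher in PαS- than in OP-iPS clones, by 1.49 ± 0.43 (adjusted p = 0.0488) and 1.51 ± 0.41 (adjusted p = 0.0369), and no other of the 13 probes was called, against 0.814% of all tested probes called higher. Of the 4 tested osteo-lineage markers 1 was also called, Bglap1 at 1.13 ± 0.28 (adjusted p = 0.024), and its part was not tested. Taf7l was -0.23 to 1.23 in 4F-PαS-iPS and 0.01 to 1.13 in 3F-PαS-iPS clones, so that all 10 lay above the 5 4F-OP-iPS clones but not above 3F-OP-iPS. On the 3 slides that held clones of both sources, the difference was 2.16 and 3.93 for 4F-clones and 1.15 for 3F-clones. The last compares 2 PαS-iPS clones with 2 OP-iPS clones, 3F-OP-iPS #1 and #2. The group means of the 3F-clones were 0.50 in PαS-iPS and 0.44 in OP-iPS, and those of the 4F-clones 0.36 and -2.57. The call at the chosen probe was lost when any of 23 of the 32 arrays was left out, as well as under normexp, quantile normalization, without the filter on dim probes and without the dark clones. It held without 4F-PαS-iPS #2, 4F-OP-iPS #2 or #4, 3F-OP-iPS #4 or #5, 4F-TTF-iPS #3, 3F-TTF-iPS #1 or either ES array. Between PαS- and TTF-iPS clones 0 of 13 probes were called, against 0.496% of all tested probes, and 4 had an unadjusted p under 0.05. Between OP- and TTF-iPS clones 0 were called, against 0.0217%, and none had an unadjusted p under 0.05.

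**Figure D5:**
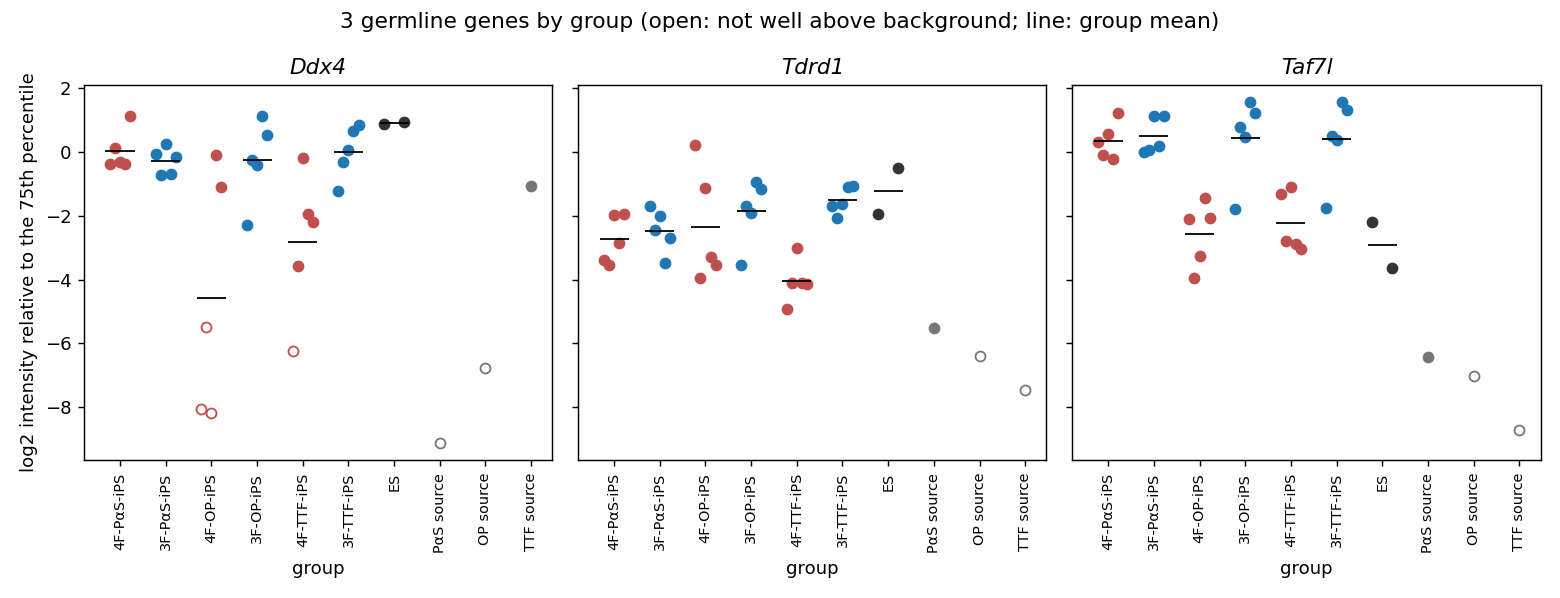
Each point is the level of Ddx4, Tdrd1 or Taf7l on 1 array, by group, as log2 intensity relative to the 75th percentile of the array, open where not well above background, with a line at the group mean. Ddx4 falls to background in 3 4F-OP-iPS clones and 1 4F-TTF-iPS clone, Tdrd1 is highest in 4F-OP-iPS #1, and Taf7l is measurable in every clone and lower in all 4F-OP-iPS than in all PαS-iPS clones.

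Against ES cells 2 of the 13 probes were called higher in clones and 2 lower, shares no larger than those over all probes. Taf7l was higher in clones, by 2.40 ± 0.70 (adjusted p = 0.00578) and 2.62 ± 0.67 (adjusted p = 0.00177), against 17.2% of all tested probes called higher. It was -2.19 and -3.63 in the ES lines and below the higher of these in 5 of the 30 clones and above both in 25. Sycp3 was lower in clones, at -2.64 ± 1.05 (adjusted p = 0.037), and so was Rnf17 at its second probe, at -2.24 ± 0.74 (adjusted p = 0.0123), so that 2 of 13 probes were called lower, against 19.0%. The chosen Rnf17 probe, at -0.51 ± 1.04 (adjusted p = 0.70), did not pass. The 2 ES lines themselves differed: Sycp3 was 1.35 in EB-3 and -1.29 in RF8, Dazl -1.14 and -3.09, Rnf17 -2.10 and -3.99, while Ddx4 was 0.86 and 0.95. Without EB-3 or without RF8 2 member probes were called. The Sycp3 difference was -1.32 without EB-3, where it did not pass, and -3.96 without RF8, and that of the chosen Taf7l probe was 3.11 without EB-3 and 1.68 without RF8, where it did not pass. Of the 4 member probes within 2-fold between the lines 0 were called. In the same comparison 8 of 10 fibroblast and feeder markers were higher in clones, with summed levels of 1.05 and 152.4 in the ES lines. Their part was not tested, and since no ES array was scanned with the clones, scan session and cell type cannot be told apart.

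The source cells were mostly dark for these genes. Tdrd1 and Taf7l, which were above background in every clone, were lower on all 3 source arrays than in any of the 30 clones, as were 14.1% of all tested probes. Where a source was at background, the mean of the clones gives a bound: in OP cells Taf7l was at least 62.5-fold and Ddx4 at least 35.8-fold below it, and in TTF Mael at least 51.2-fold. In PαS cells Mael was at least 74.8-fold and Dazl at least 33.3-fold below it. In the PαS array Tdrd1 (-5.50), Taf7l (-6.42) and Slc25a31 (-5.86) were above background, all below the clone means of -2.50, -0.52 and -4.05. In the TTF array Ddx4 stood out at -1.07, above 10 of the 30 clones, while the other 9 genes were at background there. On this array 3 of the 4 haematopoietic markers were above background, with a summed level of 19.6, against 0.0408 and 0.0313 on the PαS and OP arrays, and their part was not tested. Each source had 1 array, so there is no replicate check and no test.

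Among themselves the genes varied together over the clones. Over the 30 clones the Pearson correlation of the chosen probes had a median of 0.83 over the 45 pairs, from 0.12 (Ddx4 and Tdrd1) to 0.97 (Ddx4 and Mael). Tdrd1 was the gene apart, with a median of 0.32 to the other 9. Over the 25 clones without the dark ones the median was 0.80, from 0.58 to 0.96, and that of Tdrd1 was 0.76. The points of a correlation share the array, its slide and its scaling, so these values are a description. In 4F-PαS-iPS #5, Dazl (1.98), Ddx4 (1.12), Mael (1.99), Sycp1 (-0.88) and Rnf17 (-1.17) were each at their highest level among the 30 clones. Sycp3 (0.27), Stk31 (-1.93) and Slc25a31 (-1.31) were highest in 3F-OP-iPS #4.

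The 5 genes outside the list whose levels over the 30 clones were most like the mean of the 10 were sought among 20292 probes above background in every clone. The first was Gtsf1 (1700006H03Rik on the array), a piRNA pathway factor, with a Pearson correlation of 0.98 over 30 clones and 0.95 over the 25. Tuba3, an alpha tubulin with a testis form, had 0.97 and 0.91. The RIKEN gene A530057A03Rik had 0.96 and 0.87, and the remaining pair were transcripts that the array design names by identifier only, with 0.98 and 0.96 over 30 clones.

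Some genes of 3 other germline lists were called in the same comparisons, in fits without the slide. With the slide as a random block the piRNA and nuage, meiotic chromosome and other germline lists had 2, 1 and 2 genes called in OP-iPS clones, and in TTF-iPS clones 0 each with the slide as a random or a fixed block. With normexp they had 3, 1 and 2 in OP-iPS and 5, 3 and 1 in TTF-iPS. Without the slide, of 13 tested piRNA and nuage genes 6 were higher in 3F-OP-iPS and 0 lower (median difference 1.90), and 6 were higher in 3F-TTF-iPS and 0 lower (median 1.30), where 3.93% and 3.97% of all tested probes were higher. Fkbp6, a chaperone of the piRNA pathway, was 5.19 ± 1.25 higher in 3F-OP-iPS (adjusted p = 0.0131) and 4.63 ± 1.25 in 3F-TTF-iPS (0.0191). Mov10l1, the helicase that feeds piRNA precursors, was 3.80 ± 0.83 higher in 3F-OP-iPS (adjusted p = 0.0077), and Tdrd9 4.22 ± 0.76 in 3F-TTF-iPS (0.0015). Of 15 tested meiotic chromosome genes 7 were higher in 3F-OP-iPS, 4 in 3F-TTF-iPS, and 0 lower in either, led by Syce1 (4.32 ± 1.23, adjusted p = 0.0297) and Tex12 (3.72 ± 0.73, 0.0037) in OP-iPS and by Tex12 (4.10 ± 0.73, 0.0015) and Meiob (3.02 ± 0.70, 0.0079) in TTF-iPS clones, all parts of the synaptonemal complex or of meiotic recombination. Of 11 other germline genes 5 and 3 were higher and 0 lower, with Tex101 at 3.70 ± 1.00 (0.0233) and 4.04 ± 1.00 (0.0121). In PαS-iPS clones 0 genes of these 3 lists were called.

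The remaining lists held genes that work earlier in the germ line and genes that methylate DNA or repress germline genes. Of 8 primordial germ cell genes 1 was higher in 3F-OP-iPS, Tfap2c at 2.22 ± 0.68 (adjusted p = 0.0434), where 3.93% of all tested probes were higher, and 0 were called between TTF-iPS clones. The count of 1 became 0 with normexp, without the filter on dim probes, with the slide as a random block and without the dark clones, and it changed, to between 0 and 3, in 18 of the 32 fits with 1 array left out. Of 13 DNA methylation and germline repressor genes 1 was lower in 3F-OP-iPS, against 0.575% of all tested probes called lower. This was Uhrf1, which brings Dnmt1 to replicated DNA, at -1.05 ± 0.21 (adjusted p = 0.0044), and 0 were called between 3F- and 4F-TTF-iPS or PαS-iPS clones. With quantile normalization the count was 0, as it was without the dark clones, without 4F-OP-iPS #1 and without 3F-OP-iPS #2. Between PαS- and OP-iPS clones 1 of the 13 was called higher, against 0.814% of all tested probes: Dnmt3l, the cofactor of de novo methylation, at 2.39 ± 0.65 (adjusted p = 0.0371). That count was 0 with normexp, without the filter, with the slide as a fixed block and without the dark clones, and it changed, to between 0 and 2, in 12 of the 32 fits with 1 array left out. Against ES cells, where 19.0% of all tested probes were lower in clones, 6 of these 13 were lower and 0 higher, with Dnmt3b at -2.98 ± 0.54 (adjusted p = 4.89e-05) and Uhrf1 at -2.16 ± 0.25, and 4 of 8 primordial germ cell genes were lower, with Prdm1 at -2.95 ± 0.94 (0.0099), but 0 without EB-3. Without the 5 dark clones 0 genes of these lists were called between 3F- and 4F-OP-iPS, and between TTF-iPS clones 4 piRNA and nuage genes, 2 meiotic chromosome genes and 0 other germline genes. With 1 array left out the OP-iPS counts of the piRNA and nuage, meiotic chromosome and other germline lists were 2 to 8, 2 to 10 and 1 to 6, that of primordial germ cell genes 0 to 3 and that of the repressor list 0 to 2. The TTF-iPS counts of the first 3 lists were then 3 to 6, 3 to 6 and 1 to 4, lowest for piRNA and nuage genes without 3F-TTF-iPS #5 and for other germline genes without 4F-TTF-iPS #1 or 3F-TTF-iPS #5.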

How the data were processed

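RNA was measured on 1-colour Agilent mouse arrays (mm7 probe positions). The authors extracted total RNA and deposited the Feature Extraction intensity of each spot, already background-subtracted, and a table of normalized log2 values from GeneSpring GX, which matched the levels used here (lowest correlation 0.99996 over 19029 probes). The main values are the log2 of the processed intensity minus the 75th percentile of each array over 41174 gene probes, with control spots left out and spots of 1 probe averaged. A probe was tested where all arrays of 1 or more of 7 groups (6 clone groups and ES cells) had it well above background, 27634 in all, in 1 fit with limma 3.58.1 (R 4.3.3), with Benjamini-Hochberg adjustment over all of them. A call needed an adjusted p under 0.05 and at least 2-fold, and for differences between factor effects the adjusted p alone. Source cells, with 1 array each, stayed out of the fit.

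The probes, genes and pathway lists, and the tests, were chosen with earlier results of these data known. All 10 genes are named, and from each list those with the largest called differences. The lists, from textbook knowledge, were piRNA and nuage genes, meiotic chromosome genes, other germline genes, primordial germ cell genes, DNA methylation and germline repressor genes, and broadly expressed relatives. On simulated arrays 76.5%, 74% and 72% of 200 changed probes among 27634 were recovered between 3F- and 4F-clones from PαS cells, OP cells and TTF. False calls numbered 10, 11 and 3. The simulation had normal noise, the same spread in every group, no slide effect and no low clones. Its rates therefore do not carry over to the comparisons of the real clones. "At least" folds use, per array, the higher of the lowest signal well above background and the probe's own. Promoter sequences are from RefSeq (GRCm38.p6), and probe positions were not placed in exons, since no mm7 annotation was used here. Alternatives were normexp background correction, quantile normalization, the authors' table, no filter on dim probes, no fold minimum, the slide or replicate number as a block, leaving out each array, and, added after the data were seen, leaving out 5 clones and raising dim signals to the array's floor.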

Additional observations from a re-analysis of the deposited data

How the results depend on the processing

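The counts for 3F against 4F in PαS-iPS clones, and those of PαS or OP against TTF, were 0 under each alternative run. For 3F against 4F in OP-iPS clones (11 of 13 probes) the count was 3 with normexp, 4 with the slide as a random block, 3 without the 3 clones low in Sox2 and Nanog, 0 without the 5 low clones, and 4 to 12 with 1 array left out. In TTF-iPS clones (9) it was 4 with normexp, 0 with the slide as a fixed or a random block, 4 without the 5 low clones, and 5 to 11 with 1 array left out. For PαS against OP (2) it was 0 with normexp, 1 with quantile normalization, 0 without the filter on dim probes, 0 without the 3 or the 5 low clones, and 0 to 8 with 1 array left out, the 8 without 4F-OP-iPS #4. Against ES cells (4) it was 0 among probes within 2-fold between the ES arrays, and 2 to 4 with 1 array left out. For the difference of the factor effect between PαS and OP (0) it was 0 to 10 with 1 array left out. Directions turned at -0.0611 for Sycp1 and -0.52 for Taf7l in TTF-iPS clones with the slide as a fixed block, and at -0.0206 for Rnf17 and -0.39 for Stk31, which had not passed, in OP-iPS clones without the 5 low clones. The cause was not tested. The slide as a fixed block could not be fitted for 3F against 4F in PαS- or OP-iPS clones, whose factors and slides coincide. For TTF-iPS clones it in effect compares 3F-TTF-iPS #1 with 4F-TTF-iPS #5 alone.

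With the replicate number as a block 12 probes were called in OP-iPS, 11 in TTF-iPS and 3 for PαS against OP. The numbers are names only: among 75 same-numbered pairs 16 had deviations correlated over 0.1, and 6 of 30 clones correlated best with their own number. In the comparisons where the median difference over all tested probes moved by over 0.1, it lay between -0.26 and 0.15 with normexp and between -0.31 and 0.21 without the filter on dim probes. Over all tested probes quantile normalization moved the split of higher to lower calls from 1085 and 159 to 728 and 354 in OP-iPS, from 1096 and 499 to 908 and 842 in TTF-iPS, and from 53 and 84 to 72 and 50 for PαS against TTF. With dim signals raised to the floor the counts were 8 in OP-iPS and 10 in TTF-iPS, and Sycp1 and Rnf17 no longer passed in OP-iPS. Dazl, Sycp1, Stk31 and Rnf17 had a bound only in each of the 5 low clones, and other genes in some of them.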
